A study of Mus musculus with 16 samples.

Results

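PacBio Iso-seq reads of mouse brain were searched for isoforms that were present in some samples and missing from others, in 7 genes out of 24960 annotated genes listed in the tables. The 7 genes are Armcx1, Srprb, Sfr1, Zscan21, Mrpl55, Dtna and Hif1a, and they were selected on their isoform shares, the very values described here, so these are given as a description, with no test. The tables list 627 isoforms of these genes in all, from 29 for Srprb to 294 for Dtna. The samples came from the cortex and the striatum of 3-month-old males. R6/2 mice carry a transgene with exon 1 of human huntingtin and a long CAG repeat, on a mixed C57BL/6 and CBA background (B6CBA-Tg(HDexon1)62Gpb/3J), and NT mice are the non-transgenic controls. Each region held 4 NT and 4 R6/2 samples, numbered 1 to 4 within a genotype, and no further treatment separated them. The labels do not say whether NT 1 of the cortex and NT 1 of the striatum were the same mouse, nor that each sample was a separate animal. As a model, R6/2 carries only a fragment of the human gene beside its own mouse genes.

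A gene makes several isoforms by starting, splicing or ending its RNA at different places, and a long read shows a whole isoform at once. TALON, the program that made the tables, calls an isoform known when it matches an annotated transcript, NIC when it joins annotated splice sites in a combination that is not annotated, and NNC when it uses at least 1 splice site that is not annotated. Reads that match only part of a transcript (ISM) can be fragments, so a share below is a percentage of the gene's complete reads, which are known, NIC and NNC reads together. A share was computed only in samples with at least 5 such reads. Of the 627 isoforms, 64 reached 10% in at least 1 such sample, of which 19 were known, 25 NIC and 20 NNC.

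The members have unrelated roles. Armcx1 is an X-linked protein of the mitochondrial outer membrane that takes part in the transport of mitochondria along axons. Srprb is the beta subunit of the signal recognition particle receptor, which brings new secretory proteins to the endoplasmic reticulum. Sfr1 takes part in DNA repair, Zscan21 is a zinc finger transcription factor with a SCAN domain, and Mrpl55 belongs to the large subunit of the mitochondrial ribosome. Dtna is alpha-dystrobrevin, a scaffold of the dystrophin complex, and Hif1a is the oxygen-regulated subunit of the hypoxia-inducible factor.

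Splice junctions of 3 members were read from the GENCODE M21 transcripts (mm10, plus strand). Those of Zscan21 and Mrpl55 are shown because their known isoforms part there, and that of Armcx1 because most of its known isoforms share it. In Zscan21, the second exon (chr5:138117836-138117920, 85 bases, in the 5′ untranslated region) was either included or skipped. In the next lines, capitals mark bases of that exon.

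Zscan21 exon 1 to exon 2: cggttctgagtcacgTGCTGTAATTACAGG

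Zscan21 exon 2 to exon 3: ATTATCTACTACAAGgtttgaagagtggca

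Zscan21 exon 1 to exon 3, second exon skipped: cggttctgagtcacggtttgaagagtggca

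In Mrpl55, exon 1 (ending at base 59202659 of chromosome 11) was joined to exon 2 at either of 2 acceptors 3 bases apart, at 59204172 or at 59204175, both ahead of the start codon. Capitals mark the 3 bases that only the upstream acceptor keeps.

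Mrpl55 upstream acceptor: ctctcccacgctaagCAGggcctacgtcgg

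Mrpl55 downstream acceptor: ctctcccacgctaagggcctacgtcgg

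In Armcx1, 6 of the 8 known isoforms, which held 585 of its 593 known reads, share an untranslated exon (chrX:134719627-134719725, 99 bases, capitals below) joined to the last exon, which holds the whole coding sequence. Whether the NIC isoforms of Armcx1 have this junction is not known from the tables.

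Armcx1 shared exon to last exon: ACATCTGCTGCAAGGgtatcactgtatctg

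The tables give no exon positions for NIC and NNC isoforms, so those are named by class, exon number and length.

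Depth differed between samples. The cortical samples held 252885 to 808814 reads and the striatal samples 317050 to 1496196, of which 65.1 to 72.4% and 63.4 to 80.1% were complete. NT 1, NT 2, R6/2 2 and R6/2 3 of the striatum had 2 sets of counts each, which were summed, and their reads came from longer isoforms (mean 2131 to 2207 bases against 1610 to 1854 in the other 4). Markers of striatal projection neurons (7 genes, summed) reached 9299 to 14020 CPM (counts per 1000000 reads of the library) in the NT striatum and 1773 to 3103 in the R6/2 striatum. In the cortex they reached 306 to 416 CPM in NT and 77.3 to 105 in R6/2. Summed cortical excitatory markers (5 genes) overlapped between regions in NT, at 166 to 381 CPM in cortex and 118 to 326 in striatum. In R6/2 they reached 181 to 310 CPM in the cortex and 64.0 to 152 in the striatum. Summed choroid plexus markers (5 genes) varied widely within groups, from 53.2 to 10504 CPM in the NT striatum and from 16.8 to 1587 in the cortex. Intervals below are 95% Wilson intervals, and the limit for a count of 0 is the upper end of that interval. Both cover counting error only.

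Armcx1 had at most 1 read of its known isoforms in NT 2 and in R6/2 1, in both regions, and between 5 and 95 in the other samples. Known isoforms made up 17 of 18 complete reads in cortex NT 1, 0 of 51 in NT 2, 19 of 24 in NT 3 and 63 of 71 in NT 4. In the R6/2 cortex they were 1 of 66 in R6/2 1, 62 of 76 in R6/2 2, 82 of 98 in R6/2 3 and 55 of 69 in R6/2 4. The striatum gave 55 of 62, 0 of 44, 29 of 35 and 5 of 6 in NT 1 to 4, and 0 of 41, 91 of 111, 95 of 111 and 19 of 23 in R6/2 1 to 4. No sample lay between: the shares were 1.52% or less in 4 samples and 79.2% or more in the other 12. A count of 0 of 51 reads allows a share of up to 5.88%, and 0 of 41 up to 7.32%. The isoforms read in their place were 3 NIC isoforms with 4, 5 and 5 exons (2094, 2187 and 2303 bases), which together made up 66.7% (53.0 to 78.03) of complete reads in cortex NT 2, 62.1% (50.1 to 72.9) in cortex R6/2 1, 72.7% (58.2 to 83.7) in striatum NT 2 and 82.9% (68.7 to 91.5) in striatum R6/2 1. Those 3 isoforms had no read in any of the other 12 samples. Another NIC isoform, with 5 exons and 2344 bases, went with the known ones, with reads in 11 of the 12 samples that had them and none in NT 2 or R6/2 1.

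The gene itself was still read where the known isoforms were missing. Armcx1 totals, over all isoforms, were 62.02, 127, 146 and 160.3 CPM in cortex NT 1 to 4 and 155, 184, 165 and 179 CPM in cortex R6/2 1 to 4. NT 2 lay inside the NT range and R6/2 1 was the lowest of the 4 R6/2 samples. In the striatum the totals were 84.8, 36.8, 61.8 and 41.8 CPM in NT 1 to 4 and 69.5, 130.2, 115 and 68.3 CPM in R6/2 1 to 4, with NT 2 the lowest NT sample and R6/2 1 above R6/2 4.

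**Figure D1:**
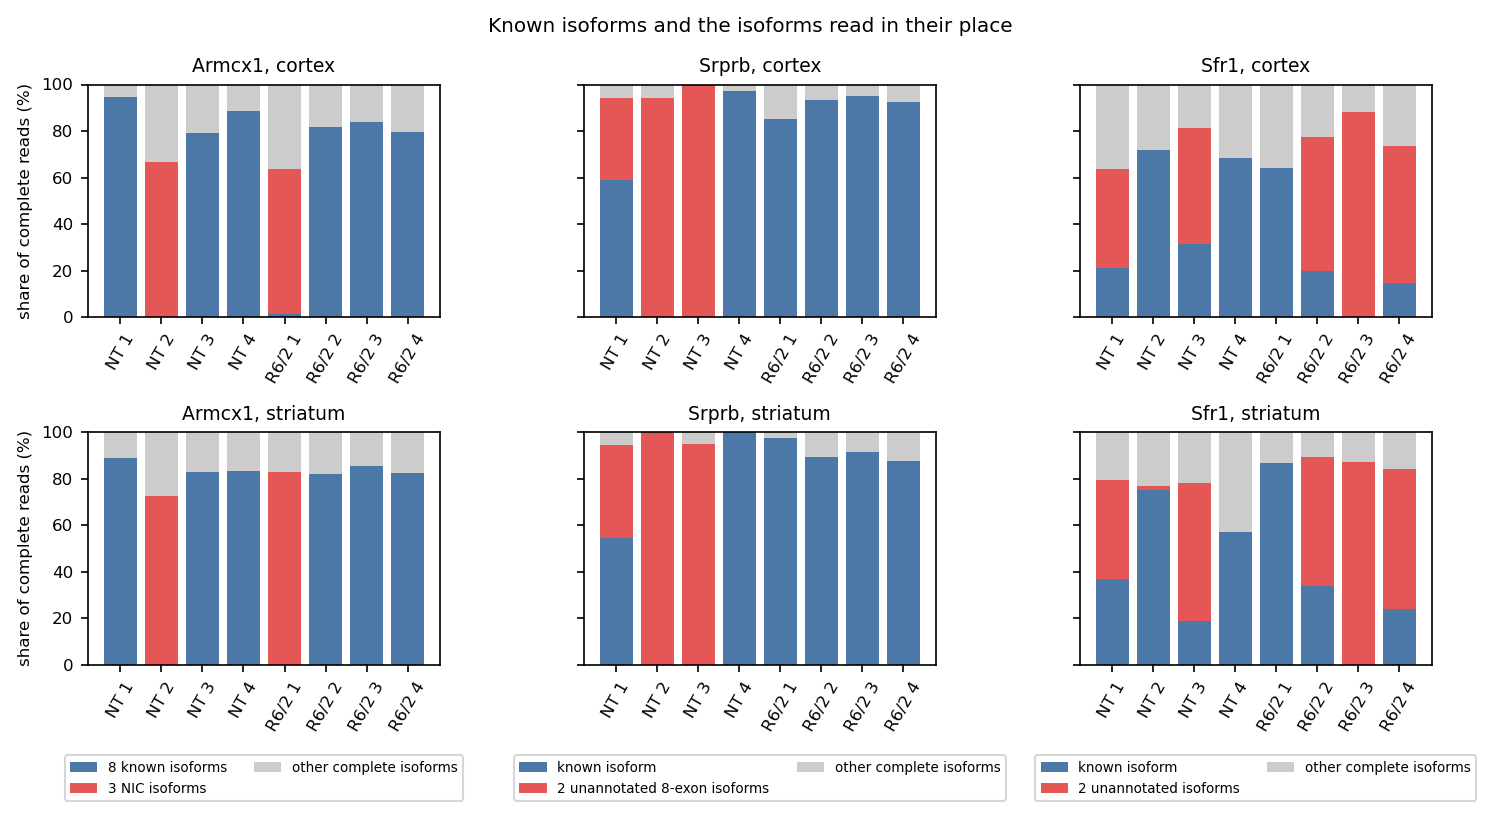
Stacked bars of the share of complete reads (%, vertical axis, from 0 to 100) for Armcx1, Srprb and Sfr1 in each sample of the cortex (upper row) and the striatum (lower row): known isoforms in blue, the unannotated isoforms read in their place in red, all other complete isoforms in grey. Blue is missing or nearly so in NT 2 and R6/2 1 for Armcx1, in NT 2 and NT 3 for Srprb and in R6/2 3 for Sfr1, in both rows.

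Srprb showed a missing state, a mixed state and a complete state. Its 7-exon known isoform (3064 bases) had 10 of 17 complete reads in cortex NT 1, 0 of 17 in NT 2, 0 of 6 in NT 3 and 33 of 34 in NT 4. The R6/2 cortex had 23 of 27, 43 of 46, 57 of 60 and 36 of 39. In the striatum the counts were 30 of 55, 0 of 50, 0 of 19 and 6 of 6 in NT 1 to 4 and 40 of 41, 76 of 85, 74 of 81 and 21 of 24 in R6/2 1 to 4. NT 2 and NT 3 thus had none in either region, NT 1 was mixed at 58.8% (36.0 to 78.4) and 54.5% (41.5 to 67.0), and NT 4 and the R6/2 samples had 85.2% or more. The 6 reads in cortex NT 3 allow a share of up to 39.0%, so its 0 is weak by itself. The 0 of 50 in striatum NT 2 allows up to 7.13%.

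An 8-exon NIC isoform of Srprb (2910 bases) took the known isoform's place, together with an 8-exon NNC isoform of 2909 bases. The pair held 6 of 17, 16 of 17, 6 of 6 and 0 of 34 reads in cortex NT 1 to 4, and 22 of 55, 50 of 50, 18 of 19 and 0 of 6 in striatum NT 1 to 4. Neither was read in any R6/2 sample, with 172 cortical and 231 striatal complete reads. Another NNC isoform, with 7 exons, followed the known one: it had 1 to 8 reads in 11 of the 12 samples with known reads and none in NT 2 or NT 3. The mean share of the known isoform was 39.0% ± 47.6 (SD, n = 4) in NT and 91.5% ± 4.35 in R6/2 in the cortex, and 38.6% ± 48.3 and 91.5% ± 4.36 in the striatum. The ranges overlapped in both regions, since NT 4 stood among or above the R6/2 samples.

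Sfr1 lacked its known isoform in R6/2 3 in both regions, and its main unannotated isoforms had at most 1 read in 3 other numbers. The 4-exon known isoform (1583 bases in the tables) had 7 of 33, 18 of 25, 5 of 16 and 13 of 19 complete reads in cortex NT 1 to 4, and 27 of 42, 8 of 40, 0 of 101 and 5 of 34 in cortex R6/2 1 to 4. The striatal counts were 27 of 73, 45 of 60, 11 of 59 and 12 of 21 in NT, and 52 of 60, 28 of 83, 0 of 101 and 12 of 50 in R6/2. R6/2 3 had no known read in either region, where 101 reads allow a share of up to 3.66%. Its place was held by an NNC isoform with 4 exons (769 bases) and a NIC isoform with 5 exons (1222 bases), which made up 88.1% (80.4 to 93.1) of complete reads in the cortex and 87.1% (79.2 to 92.3) in the striatum of R6/2 3.

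The same 2 unannotated Sfr1 isoforms were missing from NT 4 and R6/2 1 in both regions and from NT 2 in the cortex, with a single read in striatum NT 2. They had 0 of 25, 0 of 19 and 0 of 42 reads in the cortex of those 3 numbers and 1 of 60, 0 of 21 and 0 of 60 in the striatum. In the other 4 numbers they held 42.4 to 58.8% of the cortical and 42.5 to 60% of the striatal complete reads, beside known shares of 14.7 to 37.0%. Incomplete reads moved as well: ISM reads of Sfr1 in R6/2 3 were 8 in the cortex and 5 in the striatum, against 9 to 84 in the other cortical and 17 to 74 in the other striatal samples. R6/2 3 had an Sfr1 total of 165 CPM in the cortex, inside the R6/2 range of 153 to 260, and 101 CPM in the striatum, the lowest of the 4 R6/2 samples.

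**Figure D2:**
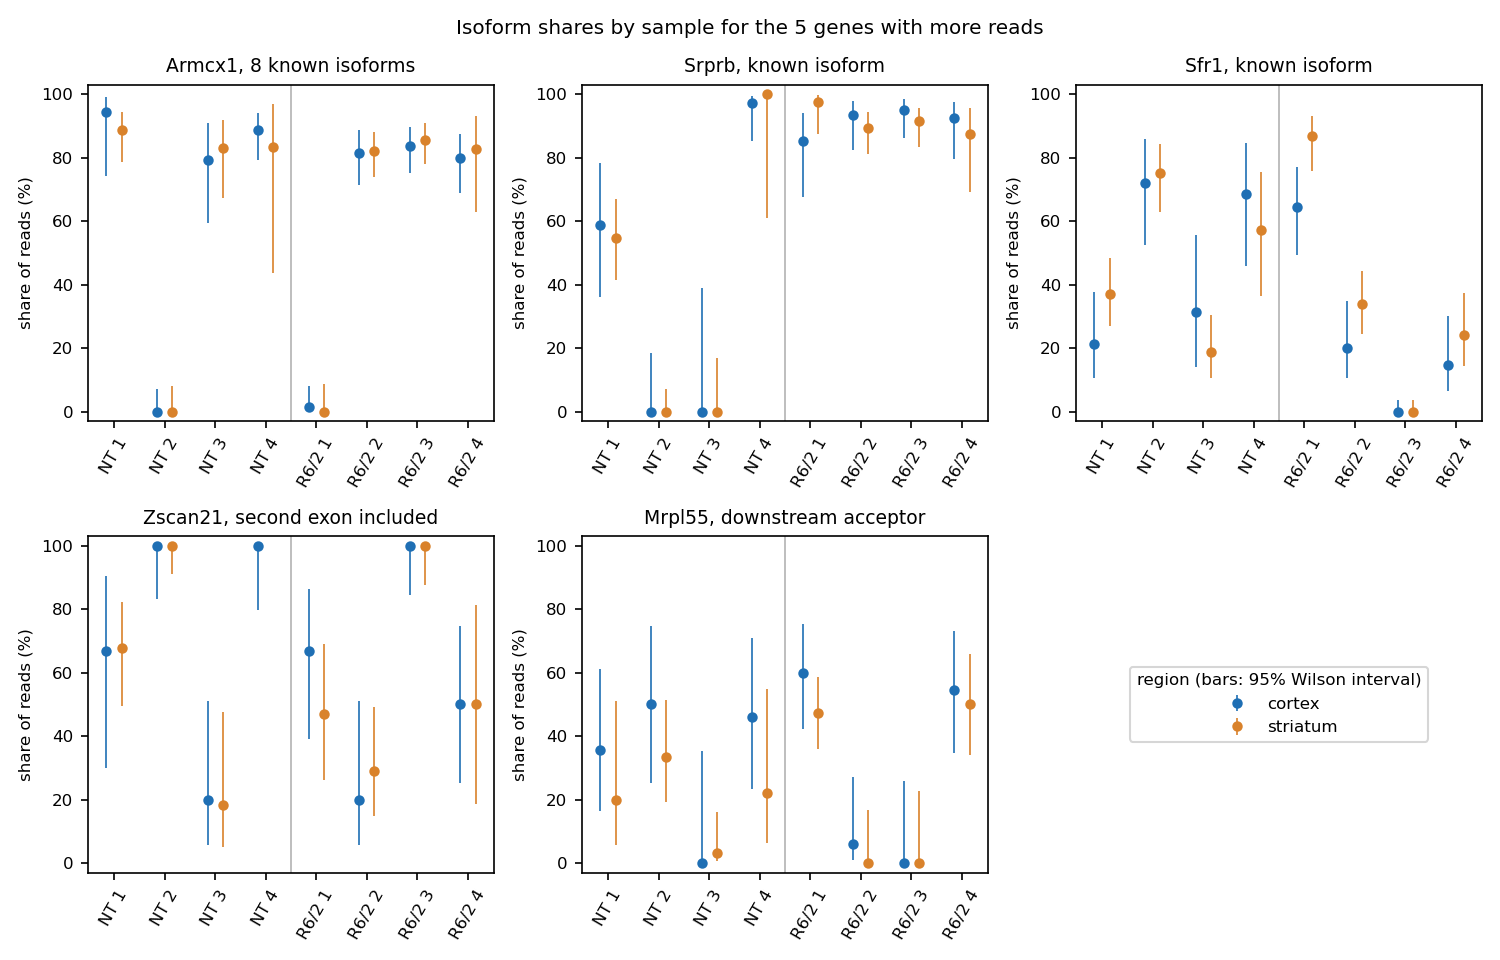
Share of reads (%, vertical axis) by sample number (horizontal axis, NT to the left and R6/2 to the right of the line) for 5 members, with cortex in blue, striatum in orange and 95% Wilson intervals as bars. The blue and orange points of a number differ by at most 5.73 percentage points for Armcx1, 12.4 for Srprb, 19.6 for Zscan21, 22.4 for Sfr1 and 23.9 for Mrpl55. Some numbers of the same genotype lie far apart (for Zscan21, 18.2 to 100%), whereas the R6/2 numbers of Srprb all lie at 85.2% or more.

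Zscan21 samples differed in their annotated isoforms, with 269 of its 273 complete reads in known isoforms. Of reads in the 4 isoforms that either include or skip the second exon, 4 of 6, 19 of 19, 2 of 10 and 15 of 15 included it in cortex NT 1 to 4, and 8 of 12, 2 of 10, 21 of 21 and 6 of 12 in cortex R6/2 1 to 4. In the striatum 19 of 28, 39 of 39, 2 of 11 and 2 of 2 reads included it in NT 1 to 4, and 8 of 17, 7 of 24, 27 of 27 and 3 of 6 in R6/2 1 to 4. Reads that skip the exon were therefore missing from NT 2, NT 4 and R6/2 3 in both regions, although striatum NT 4 had only 2 reads. NT 3 and R6/2 2 mostly skipped it, at 20% included in the cortex of both and 18.2% and 29.2% in the striatum, and NT 1, R6/2 1 and R6/2 4 were between, at 47.1 to 67.9%. The first exon also comes in a shorter and a longer form that ends 19 bases further on, and the shorter form ranged from 23.5 to 55.6% with no sample lacking either form among those with 5 reads. The remaining known isoform (4 exons, 2964 bases) was not counted above, since its 880-base first exon runs to the end of the second exon. It had 2 of 8 complete reads in cortex NT 1, and 3 of 25 and 5 of 33 in cortex and striatum R6/2 3. The other 13 samples had none, among them striatum NT 1 with 28 complete reads. All 5 known isoforms carry the same coding length of 1665 bases.

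Mrpl55 differed at the pair of acceptors of exon 2. The downstream acceptor was used by 5 of 14, 6 of 12, 0 of 7 and 6 of 13 known reads in cortex NT 1 to 4, and by 18 of 30, 1 of 17, 0 of 11 and 12 of 22 in cortex R6/2 1 to 4. In the striatum it was used by 2 of 10, 10 of 30, 1 of 31 and 2 of 9 in NT, and by 33 of 70, 0 of 19, 0 of 13 and 17 of 34 in R6/2. The low samples were NT 3, R6/2 2 and R6/2 3 in both regions, at 5.88% or less, while the others had 20% or more. Few reads make this split uncertain. A count of 0 allows up to 35.4% in cortex NT 3 and 25.9% in cortex R6/2 3. In the striatum it allows up to 16.8% in R6/2 2 and 22.8% in R6/2 3. The 20% of striatum NT 1 had an interval of 5.67 to 51.0%. The upstream acceptor was read in all 16 samples. Another choice, at exon 3, which is longer by 21 bases in some isoforms and adds them to the coding sequence (402 against 381 bases), was present in all 16 samples at 7.69 to 55.6%.

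Dtna and Hif1a had too few complete reads to show a missing isoform by sample. Dtna had 3 to 44 complete reads per sample, spread over 130 complete isoforms, and Hif1a 2 to 37 over 35, while incomplete reads made up a median of 50% of Dtna and 78.3% of Hif1a reads in the cortex. The 16-exon NIC isoform of Dtna had 3 of 7, 6 of 17, 0 of 5 and 7 of 24 reads in cortex NT 1 to 4 and 3 of 10, 0 of 13, 8 of 28 and 4 of 14 in cortex R6/2 1 to 4. In the striatum it had 9 of 38, 10 of 41, 0 of 18 and 1 of 3 in NT and 3 of 15, 7 of 43, 5 of 44 and 2 of 6 in R6/2. NT 3 had none in either region, but R6/2 2 had none in the cortex and 16.3% in the striatum. Of the 18 Dtna and 15 Hif1a isoforms that reached 10% in a sample, 6 and 9 had a single read in the whole data set.

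In Hif1a the 10-exon NNC isoform (1922 bases) was read in all 16 samples, at 20 to 83.3% of complete reads in the cortex and 3.57 to 50% in the 6 striatal samples with 5 reads. The 15-exon known isoform (4724 bases) was missing from 4 cortical samples, NT 1, NT 2, NT 3 and R6/2 1. These had 5 to 7 complete reads each, so that the limit for a count of 0 is 35.4% or more. The same numbers had it at 20 to 58.3% in the striatum. Its absence therefore did not recur between regions, and it fell where complete reads were fewest.

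Agreement between regions was next described for each member by the difference of share between a cortical and a striatal sample of the same genotype, for the same number and for other numbers. For the known isoforms of Armcx1 the 8 same-number differences had a median of 2.41 percentage points and a maximum of 5.73, against a median of 45.4 and a maximum of 94.4 over the 24 other-number differences. The Srprb known isoform gave a maximum of 12.4 for the same number and 100 for others, with medians of 3.85 and 6.08, as most samples were alike. Inclusion of the second exon of Zscan21 gave medians of 1.19 (7 pairs) and 37.5, the downstream acceptor of Mrpl55 9.37 and 31.2, and the 2 unannotated isoforms of Sfr1 1.08 and 42.4. The groupings of isoforms in Armcx1, Zscan21, Mrpl55 and Sfr1 were made after the shares were seen, and the most variable single isoform gave medians of 2.11 and 32.4, 8.0 and 21.5, 13.7 and 17.4, and 11.9 and 32.6 for them, in the same order. For Dtna the medians were 10.9 and 13.7. The same-number median of the most variable isoform was thus the lower in 6 members. The same-number median minus the other-number median was -2.22 percentage points in Srprb, -2.82 in Dtna and -3.73 in Mrpl55, and further below 0 in Armcx1, Zscan21 and Sfr1. With a number left out in turn it stayed below 0 in these 6, at its nearest -2.61 for Armcx1 without number 1, -1.05 for Srprb and for Dtna, and -0.144 for Mrpl55 without number 3. With at least 10 complete reads per sample it was 1.299 for Dtna. In Hif1a the same-number median was the higher, at 44.1 against 26.1 over 6 and 18 pairs. In the 4 striatal samples with 2 count sets, the sets differed by at most 3.96 points for the known isoforms of Armcx1, 10.9 for the Srprb known isoform, 12.4 for the Sfr1 unannotated isoforms, 25.0 for the Zscan21 exon and for the Dtna NIC isoform, 28.6 for the Mrpl55 downstream acceptor and 33.0 for the Hif1a NNC isoform.

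**Figure D3:**
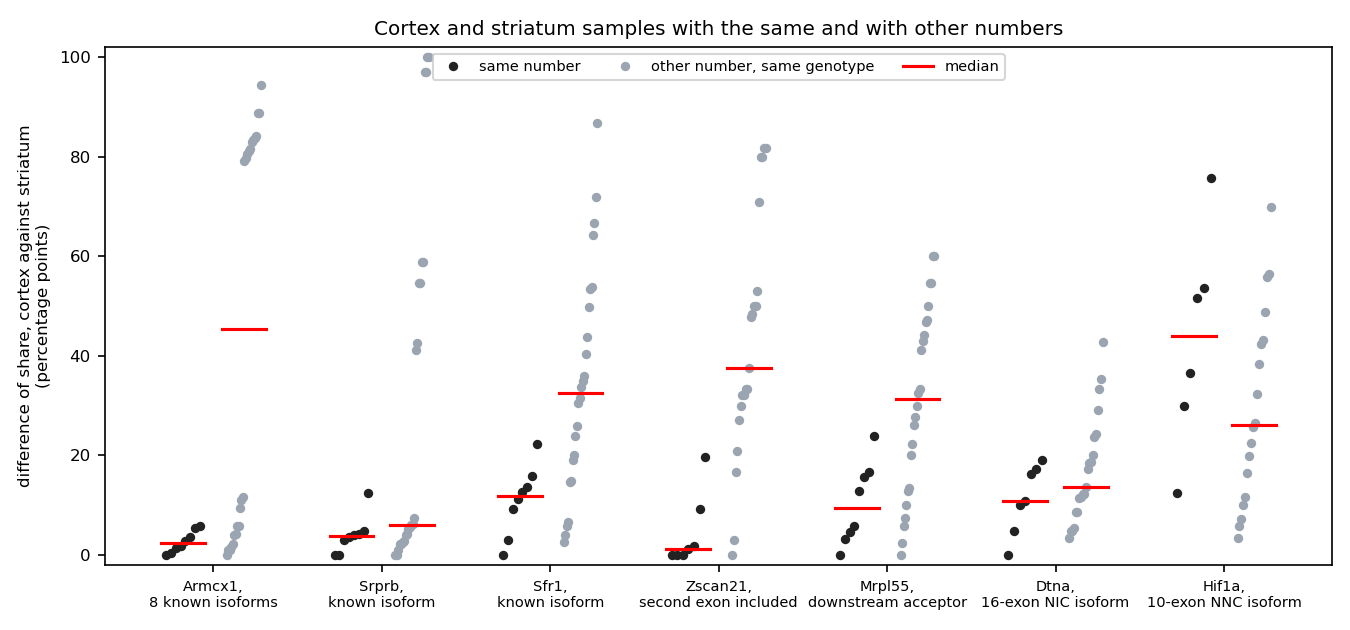
Difference of share between a cortical and a striatal sample of the same genotype (percentage points, vertical axis) for 7 members (horizontal axis): same number in black, other numbers in grey, medians as red lines. The black points stay at or below 5.73 for Armcx1 and 12.4 for Srprb while grey points reach 94.4 and 100; for Hif1a the black median (44.1) is above the grey one (26.1).

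To set these genes against the rest, the 2982 genes that reached 5 complete reads in all 16 samples were searched for an isoform with a share of at least 20% in at least 2 samples and no read in at least 2. This held for 217 genes (7.28%), and for all 4 members in that set, Armcx1, Srprb, Mrpl55 and Sfr1, which the choice of members fixes. Where a share of 50% was required, 14 genes (0.469%) with 15 isoforms were left, among them Armcx1, Sfr1 and Srprb. In these 3 members and in Commd5 the samples with no read had the same numbers in both regions, and in the other 10 genes no number was without reads in both. Of these 10, Gpsm1, Hsp90aa1, Mphosph10, Nme3, Rbbp4, Tmem141 and Tnrc6b had reads in every striatal sample, so that they could not share a number. Crem, Pafah1b3 and Spg7 lacked reads in 1 sample of each region. The 3 members were chosen on these shares, so the contrast is a description only. Zscan21, Dtna and Hif1a had fewer than 5 complete reads in some samples and were not in the search.

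Whether the numbers match over the whole data was examined with 261 such isoforms of genes that are not members. The striatal sample with the highest correlation of shares was that of the same genotype and number for 3 of 8 cortical samples, and for 4 of 8 when shares were centred within each region, a choice made after seeing the data. Among the 8 striatal samples, the same number ranked from 1 to 7 in the first case and from 1 to 3 in the second. Correlations with the same number ran from -0.19 to 0.18 and from 0.03 to 0.34 under these centrings, across isoforms that share libraries and depth.

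Genes whose isoform shares most resembled the members' were then named by the absolute correlation of share over samples. For Srprb these were Glb1 (lysosomal beta-galactosidase, r = 0.96, 14 samples), Rpsa (a protein of the small ribosomal subunit, r = 0.92, 15 samples) and Oma1 (a mitochondrial protease, r = -0.88, 12 samples). Glb1 and Rpsa lie on chromosome 9, as does Srprb, at distances of 11.2 and 16.9 Mb, where 5.72% of the 2586 genes compared lie. The 16-exon known isoform of Glb1 made up 22.2% and 16.7% of complete reads in cortex and striatum NT 2 and 14.3% in striatum NT 3, against 45.5 and 62.5% in NT 1 and 66.7 to 91.7% in the other samples. The 7-exon known isoform of Rpsa had 2 of 17 and 3 of 11 reads in NT 2 and 1 of 2 and 4 of 12 in NT 3, whereas the other 12 samples had 203 to 514 such reads of 214 to 564. Complete reads of the whole Rpsa gene were thus few in NT 2 and NT 3, beside the lower share of this isoform. NT 1 was mixed for Srprb and Glb1 and stood with the high samples for Rpsa.

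**Figure D4:**
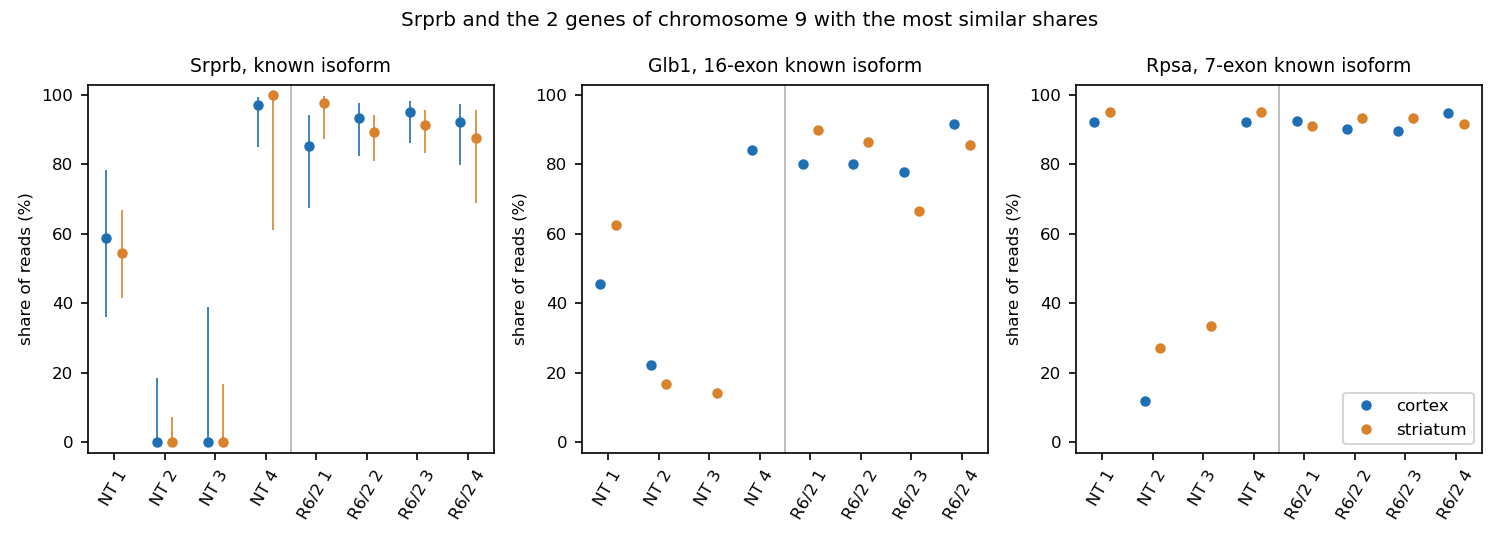
Share of complete reads (%, vertical axis) by sample number (horizontal axis) for the known isoforms of Srprb, Glb1 and Rpsa, all on chromosome 9, with cortex in blue and striatum in orange (bars for Srprb: 95% Wilson intervals). NT 2 and NT 3 are low in each panel where 5 reads were present, while NT 1 is between for Srprb and Glb1 and high, at 92.3 and 95.2%, for Rpsa. Complete reads of Rpsa were 17 and 11 in NT 2 and 2 and 12 in NT 3 (cortex and striatum), against 214 to 564 in the other samples.

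For the other 6 members the most alike genes lay on other chromosomes than the member, with 1 exception. The most variable Armcx1 isoform ran opposite to isoforms of Tmem125 (r = -0.87), Slc2a8 (r = -0.80) and Hyi (r = -0.80), each over 14 samples. Tmem125 and Hyi lie near each other on chromosome 4, from bases 118540941 and 118359990. Sfr1 was nearest to Tmem125 (r = -0.84), Zfp950 (r = 0.81) and Ccdc28a (r = 0.81). Of these, Zfp950 lies on chromosome 19 at 13.4 Mb from Sfr1, where 3.44% of the 2586 genes compared lie. For Zscan21 they were Dnaja4 (r = 0.96), Nrd1 (r = 0.82) and Thyn1 (r = 0.82), and for Mrpl55 they were Rab3gap1 (r = 0.90), Prkab1 (r = 0.84) and Hax1 (r = -0.82). Dtna gave Cep63 (r = -0.89), Rab3gap1 (r = -0.86) and Gtf3c6 (r = 0.83), and Hif1a gave Mrpl23 (r = -0.85), Wipi1 (r = -0.85) and Gng7 (r = 0.84). These were the largest values among 4100 to 4542 isoforms compared per member, over 12 to 16 samples that share libraries, and they describe likeness only.

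Total reads of a gene over all isoforms had not been used to choose the members and were tested for a difference between R6/2 and NT. With edgeR's quasi-likelihood test and Benjamini-Hochberg adjustment over all genes, 0 of the 7 members passed an adjusted p of 0.05 in the cortex, where 3.27% of 6121 genes did. In the striatum 0 of 7 passed, beside 4.34% of 7658 genes. At an unadjusted p of 0.05, 1 member passed in the cortex, beside 1055 of 6121 genes, and 2 in the striatum, beside 1352 of 7658. DESeq2 called 0 of 7 in both regions, beside 177 cortical and 304 striatal genes. Without adjustment it gave the same numbers of members, 1 and 2, beside 790 of 6121 and 1002 of 7658 genes. All 7 passed the filter on low counts in both regions. In tissue samples such as these, fewer cells of a type and less RNA per cell cannot be told apart.

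Srprb came nearest to the threshold in both regions. Its totals were 53.2, 43.0, 36.6 and 72.7 CPM in cortex NT 1 to 4 and 55.7, 108, 92.5 and 101 CPM in cortex R6/2 1 to 4, a log2 fold change of 0.73 ± 0.26 (SE, adjusted p = 0.151 by edgeR). In the striatum they were 66.8, 39.8, 33.4 and 36.5 CPM in NT and 71.0, 84.5, 78.4 and 63.2 CPM in R6/2, a log2 fold change of 0.76 ± 0.21 (adjusted p = 0.067 by edgeR). NT 2 and NT 3, which lacked the known isoform, were the 2 lowest cortical samples, and NT 4 lay above R6/2 1 there. In the striatum NT 4, with known reads only, lay below NT 2, which had none. Striatal NT 1 overlapped the R6/2 samples, and without it the adjusted p was 0.0166 at a log2 fold change of 1.01. Keeping every gene with at least 1 read also took striatal Srprb (adjusted p = 0.0243) and Armcx1 (adjusted p = 0.0108) past the threshold.

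Armcx1 totals differed by 0.46 ± 0.22 (log2, SE, adjusted p = 0.290 by edgeR) in the cortex and by 0.77 ± 0.26 (adjusted p = 0.134) in the striatum, with R6/2 higher and groups that overlapped. Without cortical NT 1 the cortical value was 0.24 (adjusted p = 0.453 by edgeR). Without striatal NT 2, which lacked the known isoforms, the striatal value was 0.44 (adjusted p = 0.345). Mrpl55 was at 37.7 ± 4.50 CPM (SD, n = 4) in NT and 53.0 ± 21.0 in R6/2 cortex, and at 49.4 ± 32.5 and 66.9 ± 52.1 in the striatum (adjusted p of 0.510 and 0.519 by edgeR). Zscan21 was at 43.3 ± 15.6 and 30.4 ± 7.09 CPM in the cortex and 24.2 ± 11.1 and 25.6 ± 6.24 in the striatum. The remaining log2 fold changes, for Sfr1, Dtna and Hif1a, lay between -0.29 and 0.21 with adjusted p values of 0.521 or more in edgeR.

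Totals of the shorter members moved with the count sets in the striatum. Mrpl55 was at 16.7 to 27.0 CPM in the 4 samples with 2 count sets and at 70.2 to 124 in the 4 with 1 set, and Sfr1 at 101 to 111 and 182 to 292. Each genotype held 2 samples of either kind, and the striatal fit had a term for it. The part of read length in these totals was not tested. The R6/2 effect did not pass a test of the difference between regions for any of the 7 members (0 of 7 in edgeR's interaction term, beside 0.0406% of 7390 genes, with adjusted p values of 0.928 or more and none of the 7 below an unadjusted 0.05). That test treated cortical and striatal samples as independent, and a pairing by mouse, which the labels do not give, was not modelled.

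**Figure D5:**
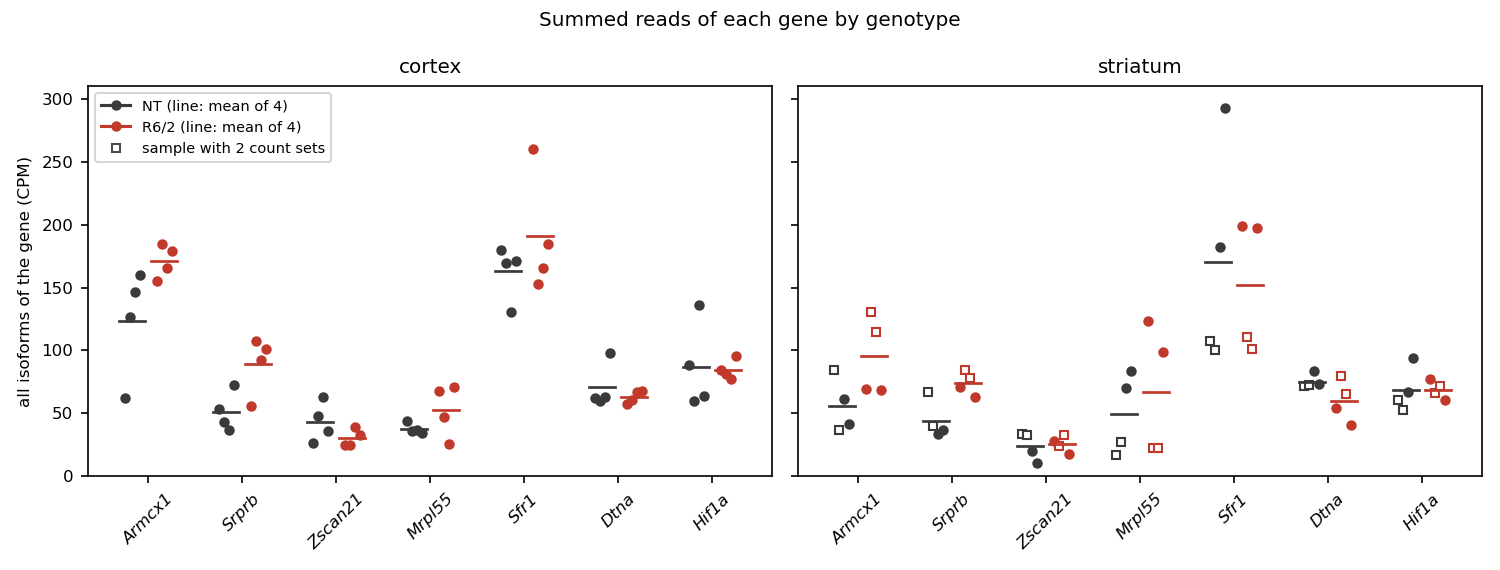
Total reads of each member over all isoforms (CPM, vertical axis from 0) in NT (black) and R6/2 (red) for the cortex and the striatum, with a point per sample and a line at the mean of 4. Open squares are striatal samples with 2 count sets, which lie low for Mrpl55 (16.7 to 27.0) and Sfr1 (101 to 111); the groups overlap for every member.

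Genes that act with the members were read from lists for 6 of the 7. Over all genes tested, 3.27% were called in the cortex and 4.34% in the striatum, so single calls in a list say little about it. Of the signal recognition particle and translocon genes around Srprb, 1 of 16 tested in the cortex was called, and 0 of 17 in the striatum. The called gene was Ssr2, a subunit of the translocon-associated protein complex, at 62.1 CPM in NT and 109 in R6/2 (log2 fold change 0.84 ± 0.20, adjusted p = 0.0228 by edgeR). Of the Armcx family and mitochondrial transport genes, 0 of 8 cortical and 1 of 10 striatal tests gave a call, namely Armcx5, a relative of Armcx1, at 7.33 and 18.2 CPM (1.31 ± 0.33, adjusted p = 0.0420 by edgeR). No gene was called among the 47 and 48 other Mrpl genes, 2 and 7 zinc finger genes of the Zscan and Zkscan families, 9 and 10 genes of the dystrophin complex, or 10 and 11 genes of the hypoxia response in the cortex and striatum. The medians of the log2 fold changes ran from -0.26 for the dystrophin complex to 0.32 for the signal recognition particle and translocon genes in the cortex and from -0.20 to 0.39 in the striatum, beside 0.01 and -0.0022 over all genes tested.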

How the data were processed

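Iso-seq libraries were made by the authors from left-hemisphere cortex and striatum, aligned with minimap2 2.17-r941 to mm10, cleaned with TranscriptClean and counted per isoform with TALON, without its filter. The deposited values are raw read counts per isoform, with no normalization and no molecular identifiers. For 4 striatal samples the 2 deposited count sets were summed; the labels speak of raw data of 2 replicates, and whether these were 2 libraries is not stated. Samples were grouped by region and genotype as the labels give them.

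Isoform counts were divided by the complete reads of the gene (at least 5 per sample). Isoforms were described from a share of 10%. Total counts per gene (known, ISM, NIC and NNC reads) were compared with edgeR 4.0.16 (glmQLFit, TMM, filterByExpr) in R 4.3.3, within each region, with a term for the number of count sets in the striatum, and with DESeq2 1.42.0 as an alternative. CPM were computed with TMM library sizes. The code was tested on simulated counts. p-values measure only the spread between samples, which the labels do not tie to separate animals. Named genes were all members, the isoforms above, the 3 most alike genes per member by the absolute correlation of shares over at least 12 samples, and called genes of the lists. The members, lists and rules were chosen with earlier results of these data known, and the groupings of isoforms by shared structure (known isoforms together, exon, acceptor) after the shares were seen. Exon positions and junctions come from GENCODE M21, in which 20 of the 23 known isoforms read here have the length that the tables give. Other normalization, filters, replicate blocks and left-out samples were tried. The list of genes that act with Sfr1 is not reported here.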

Additional observations from a re-analysis of the deposited data

Results flagged for a closer look

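In groups of 4, a sample was singled out when its gap to the nearest other sample was a large part of the group's range (Dixon's 95% limit). Of 28 groups of totals 2 had such a sample, where chance gives about 1 in 20. Of 24 groups of shares 5 had one, but the members were chosen on these shares, so that no chance rate applies and the values are a description. The Armcx1 share of known isoforms was singled out in all 4 groups: 0% in cortex NT 2 (the others 79.2 to 94.4%), 1.52% in cortex R6/2 1 (the others 79.7 to 83.7%), 0% in striatum NT 2 (the others 82.9 to 88.7%) and 0% in striatum R6/2 1 (the others 82.0 to 85.6%). The share of the 16-exon NIC isoform of Dtna was 0% in cortex R6/2 2, with 13 complete reads, and 28.6 to 30% in the other 3. The Dtna total was 98.3 CPM in cortex NT 4 against 59.7 to 62.7 in the others, and 83.6 CPM in striatum NT 3 against 71.6 to 73.1 in the others.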

How the results depend on the processing

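Depth limits most statements on a missing isoform: with 5 or 6 complete reads the limit for a count of 0 is 39.0% or more. The limit was 8.57% or less in the 3 samples with no known Armcx1 read and 3.66% for the known Sfr1 isoform in R6/2 3. No exon positions of isoforms outside the annotation were used here.

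The count of genes called in the cortex was 200, and 95 without ISM reads. Leaving out a sample gave 95 to 305 (95 without R6/2 3, 118 without R6/2 2, 123 without R6/2 1, 133 without R6/2 4 and 305 without NT 1 moved by over 1.5 times). In the striatum it was 332, and 606 with every gene of at least 1 read, 39 without the term for count sets, 20 with the first count set only and 143 to 391 with a sample left out (143, 179, 182, 188, 198 and 217 without R6/2 2, R6/2 1, R6/2 4, R6/2 3, NT 3 and NT 2 moved by over 1.5 times). The cause was not tested.

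Same-numbered NT and R6/2 samples were checked for deviating together before the replicate block was fitted. Their correlations were 0.22, -0.06, -0.05 and 0.14 in the cortex. In the striatum they were -0.53, 0.46, -0.32 and 0.53. They were positive for numbers 2 and 4, whose NT and R6/2 samples had equally many count sets. For numbers 1 and 3, whose samples differed in count sets, they were negative. Of the samples, 4 of 8 cortical and 2 of 8 striatal ones correlated best with their own number. What same-numbered NT and R6/2 samples share beyond the number was not tested. The replicate block gave 205 cortical and 185 striatal calls, and no call of a member changed with it.

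Log2 fold changes of the members changed sign in 16 of 195 alternatives, with no member past the threshold in any of these. Zscan21 in the striatum (-0.02) became 0.0232 with upper-quartile normalization, 0.0373 with DESeq2, 0.0415 with every gene of at least 1 read, 0.0199 with the replicate block and 0.125 with the first count set, and ran from -0.171 to 0.165 with a sample left out (above 0 without NT 1, NT 2, R6/2 2 and R6/2 4). Hif1a ran from -0.111 to 0.267 in the cortex with a sample left out (below 0 without NT 2, NT 4 and R6/2 4) and became -0.0033 in the striatum with the first count set. Sfr1 in the striatum (-0.08) became 0.239 without ISM reads and ran from -0.159 to 0.0594 with a sample left out (above 0 without NT 4). Dtna in the cortex (-0.19) ran from -0.289 to 0.0400 (above 0 without NT 4). Hif1a without ISM reads in the cortex did not pass the filter and gave no value.

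The median same-number difference minus the median other-number difference of the most variable isoform was -30.3 percentage points for Armcx1, -2.22 for Srprb, -13.5 for Zscan21, -3.73 for Mrpl55, -20.6 for Sfr1, -2.82 for Dtna and 18.0 for Hif1a. With known isoforms only it was -3.61 for Armcx1 and -25.3 for Mrpl55 (for Srprb and Sfr1, with 1 known isoform, it could not be computed), with ISM reads -3.45 for Sfr1, and with at least 20 reads -17.8 for Mrpl55. It turned to 1.299 and 11.7 for Dtna with at least 10 and 20 reads and to -7.86 for Hif1a with at least 10, where fewer samples enter. Without each number in turn it ran from -38.7 to -2.61 for Armcx1 (-2.61 without number 1), -20.4 to -1.05 for Srprb, -19.2 to -10.4 for Zscan21, -14.2 to -0.144 for Mrpl55 (-0.144 without number 3), -26.2 to -11.7 for Sfr1, -4.96 to -1.05 for Dtna and 9.92 to 20.8 for Hif1a. Genes with an isoform in only some samples numbered 217, and 35 (1.95%) with at least 10 reads, 14 with a share of 50% and 164 to 222 without each number.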

Other observations

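Commd5, a member of the COMMD family that is not among the genes above, was the remaining gene whose isoform reached 50% in some samples and had no read in the same numbers of both regions; it was chosen after its values were seen. Its 2-exon known isoform on chromosome 15 had no read in NT 2 and R6/2 4 in the cortex and the striatum. Complete reads of the gene went down to 8 in a sample, and at such a depth a count of 0 is weak by itself. In the cortex the isoform made up 88.9, 12.5 and 38.5% of complete reads in NT 1, NT 3 and NT 4 and 75.9, 64.0 and 71.0% in R6/2 1 to 3. In the striatum it made up 78.3, 32.0 and 33.3% in NT 1, NT 3 and NT 4 and 79.2, 70.6 and 84.8% in R6/2 1 to 3. The mean difference between regions was 7.38 percentage points for the same number and 43.0 for other numbers of the same genotype.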
